A study of Mus musculus with 8 samples.

Results

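The response of wild-type Lewis lung carcinoma (LLC) cells to low oxygen was examined in 4 of the 8 RNA-Seq libraries of the series, chosen by their labels: 2 libraries of WT cells cultured at 21% O2 (normoxia) and 2 of WT cells at 1% O2 (hypoxia). LLC is an established mouse lung carcinoma line, and both groups are wild type for Hif1an and were kept for 16 hours in their oxygen condition, with no other treatment named. The other 4 libraries, of FIH-KO cells at the same 2 oxygen levels, come from LLC cells cut with a CRISPR guide in Hif1an and grown out by single-cell dilution, and they enter here as part of the model and in a closing comparison. The labels do not say whether the 2 libraries of a group came from separate cultures, so the p values measure only the spread between these libraries, which may be technical.

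Cells sense oxygen through dioxygenases that need it as a substrate. Prolyl hydroxylases (PHD1 to PHD3, encoded by Egln2, Egln1 and Egln3) mark the alpha subunits of hypoxia-inducible factor (HIF) for the ubiquitin ligase subunit VHL, and the asparagine hydroxylase FIH, encoded by Hif1an, blocks their contact with the coactivators p300 and CBP. When oxygen is low, the alpha subunit persists, pairs with ARNT and binds short hypoxia-response elements beside genes for glucose use, blood vessel growth, pH control and the hydroxylases themselves. HIF is regulated mainly as a protein, which RNA-Seq does not measure.

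The 4 WT libraries held between 14519731 and 18177016 counted reads, and 13933 of the 53700 genes in the count table had enough reads to be tested. The first principal component of the 4 libraries held 79.6% of their variance and separated the oxygen conditions. More genes had at least 1 read in hypoxia (20716 and 20122) than in normoxia (19311 and 19169), whereas the depths of the groups overlapped. The epithelial keratins Krt8 and Krt18 and the mesenchymal genes Vim and Fn1 were expressed in every WT library. The epithelial markers Epcam, Cdh1 and Krt7 had between 0 and 2 reads, and of the 8 lung lineage markers, among them Nkx2-1 and the surfactant genes, 7 had 0 reads in every WT library, while Foxj1 had 1 to 5. The hematopoietic markers were near 0 except Itgax (74 to 167 reads) and the endothelial ones near 0 except Cdh5 (1 to 35 reads). Both exceptions were higher in hypoxia, as was the epithelial keratin Krt19 (10.4 and 4.98 in hypoxia against 1.03 and 0.652 in normoxia, as CPM, the read count scaled to the size of the library).

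Hypoxia changed the level of 4509 genes, 32.4% of those tested, called where the adjusted p of edgeR's quasi-likelihood test was below 0.05. Of these, 2349 rose (16.9%) and 2160 fell (15.5%). These shares of all tested genes are the background for every list count below. More genes rose than fell by a large amount: 1030 genes (7.39%) rose at least 2-fold and 394 (2.83%) fell at least 2-fold, which together make 10.2% of the tested genes. Low counts enter this excess: 234 tested genes had 3 counts or fewer in each WT normoxia library, and 50 others in each WT hypoxia library. With at least 10 counts required in every library, 665 rose and 309 fell at least 2-fold, while 2029 rose and 2149 fell by any amount. DESeq2 called 2059 that rose and 2067 that fell. The median log2 fold change of all tested genes was -0.001 and the mean was 0.11. Every fold change given here is hypoxia over normoxia in WT cells unless another group is named, on the log2 scale, so a positive value is a higher level at 1% O2. With a WT library left out the number of changed genes was between 2124 (without WT normoxia replicate 2) and 2867 (without WT hypoxia replicate 2), with 2690 without WT hypoxia replicate 1 and 2561 without WT normoxia replicate 1. It was between 4567 and 5270 with an FIH-KO library left out and 5660 with only the 4 WT libraries in the fit.

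**Figure D1:**
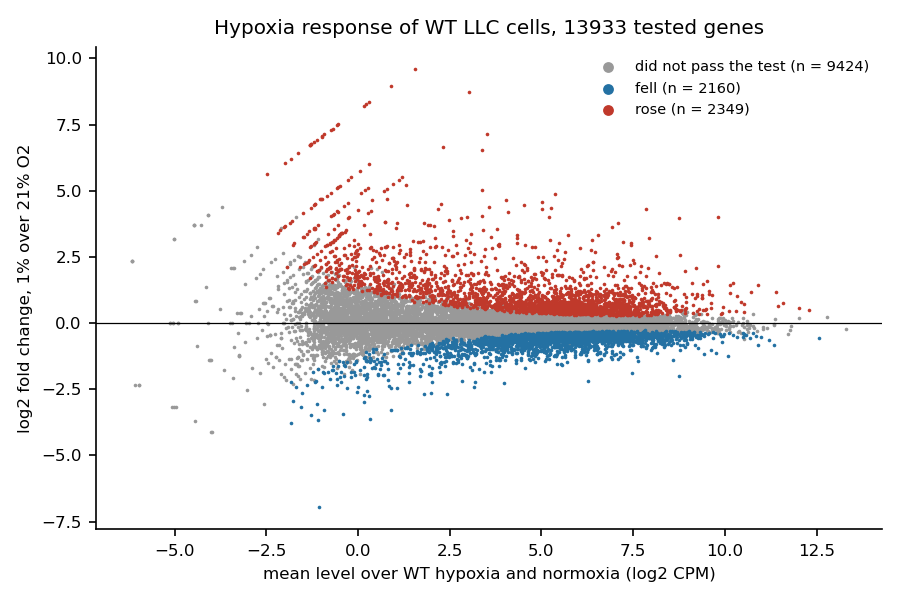
Each point is a tested gene, with its mean level over the WT hypoxia and normoxia libraries (log2 CPM) on the horizontal axis and its log2 fold change, 1% over 21% O2, on the vertical axis. The 2349 genes that rose are red and the 2160 that fell are blue, and the rises reach further from 0 than the falls; genes with no read in the WT libraries are not drawn.

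Of 8 tested oxygen sensors and their regulators, 4 rose and 0 fell. Egln1, which encodes PHD2, the main prolyl hydroxylase of HIF-1α, was at 79.7 and 72.8 CPM in the normoxia libraries and at 383 and 297 CPM in the hypoxia libraries, which is 2.16 on the log2 scale (standard error 0.14, adjusted p = 2.3e-06, from edgeR). Egln3, which encodes PHD3, went from 157 and 151 to 426 and 389 CPM (1.40, standard error 0.18). Vhl rose from 21.5 and 20.1 to 46.0 and 41.8 CPM (1.08, standard error 0.14, adjusted p = 0.00019), and Siah2, a ubiquitin ligase of the PHD proteins, rose by 1.26 (standard error 0.19). In each of these genes both hypoxia libraries lay above both normoxia libraries. Egln2, which encodes PHD1, had 34.7 and 33.6 CPM in normoxia and 29.3 and 22.9 CPM in hypoxia, a log2 fold change of -0.39 (standard error 0.14) that did not pass the test (adjusted p = 0.057), although it did in 7 of 15 alternative settings. Hif1an itself had 84.6 and 82.3 CPM in normoxia and 90.2 and 84.0 CPM in hypoxia, a change of 0.06 (standard error 0.11, adjusted p = 0.71).

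Neither Hif1a nor Arnt passed the test. Hif1a was at 403 and 371 CPM in normoxia and at 426 and 502 CPM in hypoxia (0.26, standard error 0.13, adjusted p = 0.15). Arnt, the partner subunit, had values of 73.2 and 84.0 against 76.7 and 81.0 CPM, and its groups overlapped. Among 8 tested subunits and partners 2 rose and 0 fell. These were Crebbp, which encodes the coactivator CBP (59.9 and 62.1 to 111 and 101 CPM, a log2 fold change of 0.80 with a standard error of 0.12), and Cited2, a HIF-induced competitor for the same coactivators (115 and 106 to 191 and 146 CPM, 0.61 with a standard error of 0.14, adjusted p = 0.0061). The Cited2 call was lost without WT hypoxia replicate 1 (adjusted p = 0.11) or WT normoxia replicate 2 (adjusted p = 0.09).

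**Figure D2:**
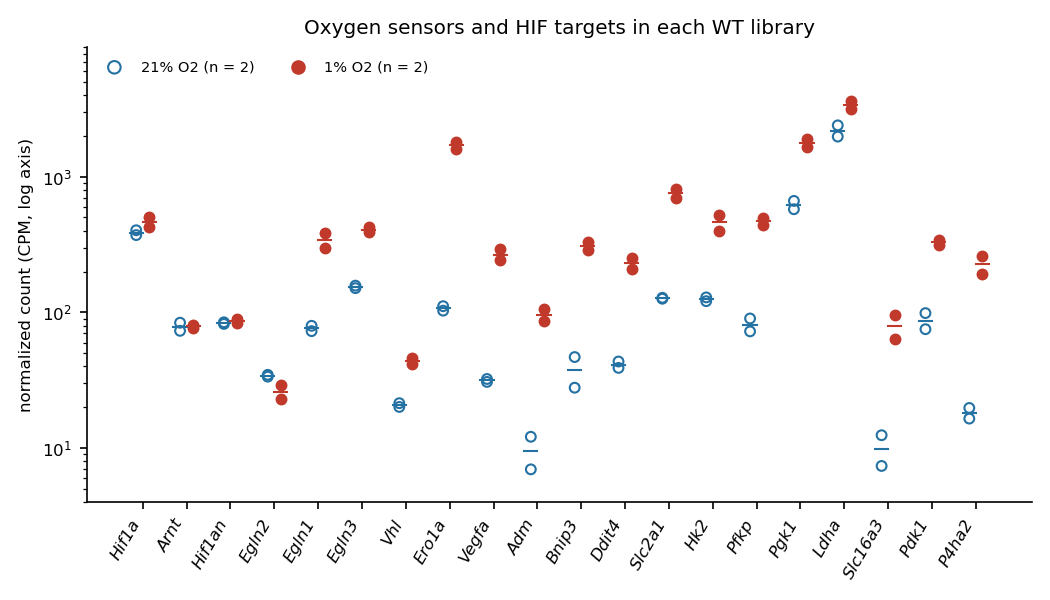
Normalized counts (CPM, log axis) of oxygen sensors and HIF targets in each WT library, with open blue circles for 21% O2 and filled red circles for 1% O2 (n = 2 each) and a short line at each group mean. Hif1a, Arnt, Hif1an and Egln2 did not pass the test, and every other gene drawn has both hypoxia libraries above both normoxia libraries.

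Known HIF targets outside metabolism rose as a group. Of 29 tested members of this list 23 rose (79.3%, against 16.9% of all tested genes) and 0 fell, with a median log2 fold change of 1.77. The list is made of genes known for this behaviour, and it was picked with earlier results of these data known, so its direction is no independent evidence. Ero1a, an oxidase that forms disulfide bonds in the endoplasmic reticulum, went from 111 and 103 CPM to 1607 and 1794 CPM, which is 3.99 on the log2 scale (standard error 0.28, adjusted p = 4.0e-06). Selenbp1, a selenium-binding oxidase, rose by 4.31 (standard error 0.42) and Mxi1, a Myc antagonist, by 1.45 (standard error 0.15). Kdm3a, a histone demethylase, rose from 92.3 and 80.0 to 327 and 250 CPM (1.74, standard error 0.15). Rora, which encodes a nuclear receptor of the clock, had no read in either normoxia library and 6.56 and 5.26 CPM in hypoxia, at least 31.9-fold higher against a floor of 3 counts per library.

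HIF-1 binds the core ACGTG (also written CACGT on the opposite strand). The sequence before the transcript start is shown for several genes that rose, from this and other lists. Only genes that hold the core there could be shown, so the windows do not tell how common it is. The windows below are 60 bases of the gene strand, 5′ to 3′, upstream of the canonical GENCODE start, in build GRCm39; capitals mark ACGTG or CACGT, which run together as CACGTG where both strands match. They lie at chr8:125677001-125677060 (minus strand, Egln1), chr7:138511310-138511369 (minus, Bnip3), chrX:105230548-105230607 (plus, Pgk1), chr13:6699091-6699150 (minus, Pfkp), chr14:45556060-45556119 (minus, Ero1a) and chr19:53317751-53317810 (plus, Mxi1).
Egln1: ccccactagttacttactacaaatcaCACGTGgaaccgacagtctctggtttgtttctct
Bnip3: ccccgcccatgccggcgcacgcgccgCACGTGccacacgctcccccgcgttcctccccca
Pgk1: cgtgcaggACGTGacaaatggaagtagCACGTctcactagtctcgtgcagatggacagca
Pfkp: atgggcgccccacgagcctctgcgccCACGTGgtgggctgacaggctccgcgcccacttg
Ero1a: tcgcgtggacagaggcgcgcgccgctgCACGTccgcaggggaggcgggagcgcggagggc
Mxi1: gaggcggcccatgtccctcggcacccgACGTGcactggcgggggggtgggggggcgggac

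The 5 letters are common, so their share was counted in all promoters. Among 11624 tested protein-coding genes, 26.5% had ACGTG on either strand between 250 bases before and 50 bases after the start. The share was 30.0% in the 838 that rose at least 2-fold, 32.8% in the 1276 that rose less, 26.0% in the 7415 that were not called, 23.7% in the 1745 that fell less than 2-fold and 21.1% in the 350 that fell at least 2-fold. In the list of HIF targets 15 of 29 promoters (51.7%, confidence interval 34.4% to 68.6%) held it. Other lists lay above and below this share, so it was not particular to HIF targets. It was 68.2% in the list of histone demethylases and 62.5% both in the clock list and in that of HIF subunits and partners. In the glycolysis list it was 39.1% and in that of collagens and basement membrane 15.4%. Genes that rose less than 2-fold also had the most CpG dinucleotides in these windows (median 21 against 18 in all), and ACGTG contains CG, so the part of base composition in these shares was not tested. A second form of the core, GCGTG, was in 50.3% of all windows and in 46.2% of those of genes that rose at least 2-fold. Vegfa and Kdm3a had neither form in this window.

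Some angiogenic factors and genes of mitophagy rose. Vegfa, the main growth factor of blood vessels (ENSMUSG00000023951.19, chromosome 17, 46327919 to 46343309, minus strand), was at 30.8 and 32.3 CPM in normoxia and at 291 and 243 CPM in hypoxia, which is 3.08 on the log2 scale (standard error 0.17, adjusted p = 2.0e-06). Adm, the vasodilator peptide adrenomedullin, went from 12.1 and 6.99 to 107 and 85.7 CPM (3.33, standard error 0.29). Pgf, a relative of Vegfa, rose by 4.49 (standard error 0.56) from 0.643 and 0.178 to 7.96 and 10.5 CPM. Of 17 tested angiogenic factors 8 rose and 2 fell (47.1% and 11.8%, against 16.9% and 15.5% of all tested genes). Their median was 0.39. Without WT hypoxia replicate 1 or WT normoxia replicate 2, 5 rose. The number that fell was 0 to 1 with each WT library left out in turn, 4 to 5 with each FIH-KO library left out in turn, 5 with only the 4 WT libraries in the fit and 4 with no filter beyond 1 read.

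Bnip3, which tethers mitochondria to the autophagy machinery (ENSMUSG00000078566.9, chromosome 7, 138490690 to 138511253, minus strand), had 46.9 and 27.9 CPM in normoxia and 328 and 287 CPM in hypoxia (3.04, standard error 0.25, adjusted p = 9.5e-06). Its relative Bnip3l rose by 1.79 (standard error 0.15). Ddit4, an inhibitor of mTORC1 signalling, rose from 43.5 and 39.0 to 251 and 210 CPM (2.48, standard error 0.20). The mitophagy and mTORC1 list as a whole was mixed, with 5 of 14 tested members that rose, 3 that fell (1 to 2 with each WT library left out in turn) and a median of -0.09. The shares of this list that rose and fell were 35.7% and 21.4%, against 16.9% and 15.5% of all tested genes. Carbonic anhydrases, which buffer acid from glycolysis, were almost silent in normoxia. Car9 had 2 reads in each normoxia library and 2.75 and 1.84 CPM in hypoxia, at least 12.4-fold higher, and Car6, which encodes a secreted carbonic anhydrase, went from 0 and 1 read to 15.7 and 16.7 CPM, at least 87.8-fold higher. Of 11 tested pH regulators these 2 rose (18.2%, against 16.9% of all tested genes) and 1 fell (0 without WT hypoxia replicate 2 or WT normoxia replicate 1). Both passed the filter on low counts through their hypoxia libraries, and with at least 10 counts required in every library 0 rose.

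Genes of glucose uptake and glycolysis rose. Of 23 tested genes 16 rose (69.6%) and 1 fell, with a median of 0.80, and 21 had both hypoxia libraries above both normoxia libraries, which 35.2% of all tested genes did. The summed level of the list went from 14210 and 13210 CPM to 26230 and 21910 CPM. Slc2a1, the glucose transporter GLUT1, rose from 128 and 126 to 810 and 699 CPM, which is 2.57 on the log2 scale (standard error 0.23, adjusted p = 1.7e-05). Pfkp, a phosphofructokinase, rose by 2.53 (standard error 0.18) from 90.2 and 72.5 to 500 and 442 CPM, and Hk2, the inducible hexokinase, by 1.88 (standard error 0.18). Pgk1, phosphoglycerate kinase, went from 662 and 575 to 1899 and 1661 CPM (1.52, standard error 0.14). These 4 genes kept their calls in every alternative setting.

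Of the abundant enzymes of the lower route, to which Pgk1 also belongs, 4 others rose by less. Eno1 changed by 0.77 (standard error 0.14), Ldha, lactate dehydrogenase, by 0.63 (standard error 0.14, adjusted p = 0.0043), Gapdh by 0.56 (standard error 0.15, adjusted p = 0.014) and Pkm, pyruvate kinase, by 0.48 (standard error 0.13, adjusted p = 0.018). All 4 were among the 10 called genes that gained the most CPM. Pkm went from 4398 and 3992 CPM to 6297 and 5407 CPM, and Gapdh from 3424 and 3318 to 5511 and 4435 CPM. The calls of Ldha, Gapdh and Pkm depended on single libraries: their adjusted p was 0.056, 0.17 and 0.17 without WT hypoxia replicate 1 and 0.097, 0.12 and 0.19 without WT normoxia replicate 2, and without WT normoxia replicate 1 it was 0.09 for Gapdh and 0.076 for Pkm.

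Some transcripts for lactate export and for the gate to the mitochondrion moved as well. Slc16a3, the lactate exporter MCT4, was at 12.5 and 7.40 CPM in normoxia and at 95.3 and 64.0 CPM in hypoxia, which is 3.01 on the log2 scale (standard error 0.31, adjusted p = 4.4e-05), and its chaperone Bsg rose by 1.10 (standard error 0.14). Slc16a1, the transporter MCT1, had a value of 0.16 (standard error 0.12, adjusted p = 0.36). Pdk1, a kinase that shuts pyruvate dehydrogenase, rose from 98.8 and 75.2 to 341 and 314 CPM (1.91, standard error 0.20). The related Pdk2, at 0.771 and 1.95 CPM in normoxia, fell to 0.224 and 0.273 CPM (-2.44, standard error 0.61, adjusted p = 0.01), a call lost without WT hypoxia replicate 1 (adjusted p = 0.073) or WT normoxia replicate 2 (adjusted p = 0.14). The list of lactate and pyruvate genes as a whole had 5 higher and 5 lower of 18 (27.8% each, against 16.9% and 15.5% of all tested genes). With each WT library left out in turn it had 3 to 4 higher and 1 to 3 lower.

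Of 12 tested glycogen genes 6 rose and 3 fell, with a median of 0.24, and with each WT library left out in turn 0 to 1 fell. Gys1, glycogen synthase, rose from 59.5 and 57.6 to 328 and 275 CPM (2.36, standard error 0.15, adjusted p = 2.3e-06), and Pgm1, which interconverts glucose phosphates, from 60.2 and 47.2 to 266 and 211 CPM (2.15, standard error 0.21). Ppp1r3b, a subunit that brings a phosphatase to glycogen, rose by 3.0 (standard error 0.30). Stbd1, which anchors glycogen to membranes and was not in the list, went from 1.80 and 2.25 to 47.7 and 41.0 CPM (4.44, standard error 0.38).

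**Figure D3:**
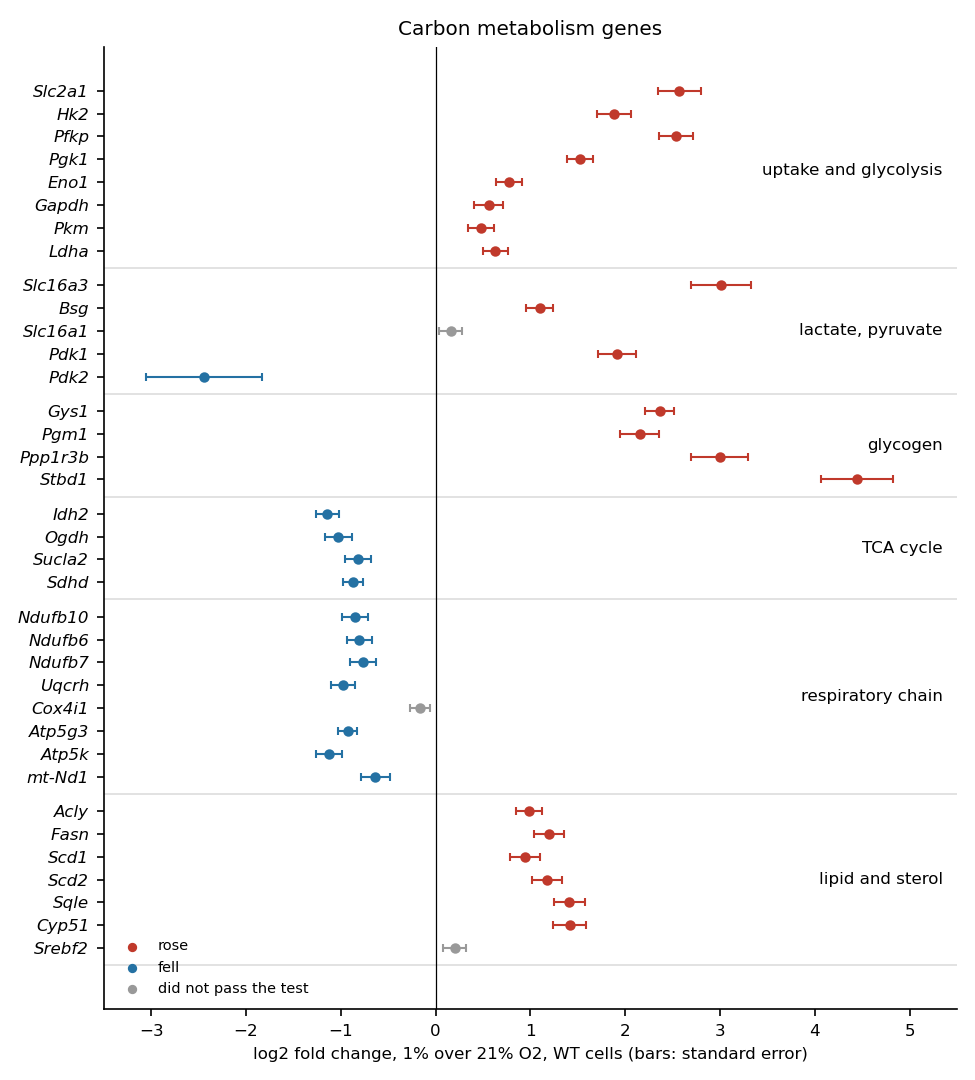
Log2 fold change, 1% over 21% O2, of named carbon metabolism genes in WT cells, with bars of 1 standard error; red genes rose, blue genes fell and grey ones did not pass the test. Glucose uptake, glycogen and lipid genes lie to the right of 0 and tricarboxylic acid cycle and respiratory chain genes to the left, between -1.14 for Idh2 and -0.16 for Cox4i1.

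Genes of mitochondrial oxidation fell. Of 26 tested genes of the tricarboxylic acid (TCA) cycle 20 fell (76.9%, against 15.5% of all tested genes) and 1 rose, with a median of -0.50. Idh2, mitochondrial isocitrate dehydrogenase, fell from 133 and 131 CPM to 53.4 and 66.4 CPM (-1.14, standard error 0.12, adjusted p = 4.6e-05). Ogdh, oxoglutarate dehydrogenase, fell from 331 and 346 to 160 and 173 CPM (-1.03, standard error 0.14), and the succinyl-CoA ligase gene Sucla2 had -0.82 (standard error 0.14). Without WT hypoxia replicate 2, 13 of the TCA cycle genes fell.

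Respiratory chain genes fell as well, by small amounts. Of 36 tested complex I genes 22 fell and 1 rose (median -0.41), and of 40 genes of complexes II to V 28 fell and 1 rose (median -0.51). In complex I, Ndufb10 fell from 69.9 and 74.4 to 39.3 and 40.8 CPM (-0.85, standard error 0.14), Ndufb6 fell (-0.81, standard error 0.13) and so did Ndufb7 (-0.77, standard error 0.14). Sdhd, a subunit of succinate dehydrogenase, was at 197 and 189 CPM in normoxia and at 107 and 104 CPM in hypoxia (-0.87, standard error 0.11). Uqcrh of complex III had a log2 fold change of -0.98 (standard error 0.12), and of ATP synthase Atp5k had -1.13 (standard error 0.14) and Atp5g3 -0.93 (standard error 0.10). Cox4i1, a cytochrome c oxidase subunit whose isoform exchange in hypoxia is well known, was at 239 and 247 against 231 and 203 CPM (-0.16, standard error 0.11, adjusted p = 0.27). The count for complexes II to V was between 23 and 26 with any of the 4 WT libraries left out. For complex I it was between 9 (without WT normoxia replicate 2) and 14 (without WT hypoxia replicate 1).

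The 13 genes encoded by the mitochondrial genome had a median of -0.27, and 4 of them fell (30.8%, against 15.5% of all tested genes). Their summed level overlapped between the groups, at 19260 and 15640 CPM in normoxia and at 16090 and 16280 CPM in hypoxia. The most abundant of the 4, mt-Nd1, fell from 3149 and 2560 to 1806 and 1868 CPM (-0.64, standard error 0.15, adjusted p = 0.008; adjusted p = 0.073 without WT normoxia replicate 1). With each WT library left out in turn, 0 to 2 of the 13 fell. Lonp1, the protease of the mitochondrial matrix, rose from 203 and 191 to 795 and 736 CPM (1.96, standard error 0.16).

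Genes of lipid and sterol synthesis rose. Of 25 tested genes of cholesterol synthesis 16 rose and 0 fell (median 0.71), and of 12 genes of fatty acid synthesis 7 rose and 0 fell (median 0.43). Sqle, squalene epoxidase, rose by 1.41 (standard error 0.16) and Cyp51, lanosterol demethylase, by 1.42 (standard error 0.17), both enzymes that consume oxygen. Fasn, fatty acid synthase, rose by 1.20 (standard error 0.16), Acly, which makes cytosolic acetyl-CoA, by 0.99 (standard error 0.13) and the oxygen-consuming desaturases Scd1 and Scd2 by 0.94 (standard error 0.16) and 1.18 (standard error 0.15). Scd2 went from 1540 and 1761 CPM to 3980 and 3477 CPM. The transcript of the master regulator Srebf2 had 0.20 (standard error 0.12, adjusted p = 0.23). Without WT hypoxia replicate 1 or WT normoxia replicate 1, 10 of the cholesterol genes rose.

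Genes of lipid storage and uptake had a median of 0.01, with 6 of 14 tested members that rose (42.9%) and 1 that fell (7.14%). The number that fell was 4 without FIH-KO hypoxia replicate 1, 3 without FIH-KO hypoxia replicate 2, 2 without either FIH-KO normoxia library, without WT hypoxia replicate 2 or with no filter beyond 1 read, and 4 with only the 4 WT libraries in the fit. Hilpda, an inhibitor of lipolysis, rose from 30.1 and 22.4 to 112 and 104 CPM (2.04, standard error 0.19), and Vldlr, a lipoprotein receptor, from 2.44 and 2.84 to 68.5 and 56.5 CPM (4.56, standard error 0.42). Soat2, which esterifies cholesterol, had 20.8 and 20.4 CPM in hypoxia and 0.129 and 0.296 CPM in normoxia (6.53, standard error 0.58). In iron handling, 5 of 14 tested genes rose and 3 fell (35.7% and 21.4%, against 16.9% and 15.5% of all tested genes). Tfrc, the transferrin receptor, rose from 398 and 326 to 1020 and 975 CPM (1.46, standard error 0.24) and Hmox1, heme oxygenase, from 22.3 and 25.1 to 193 and 109 CPM (2.67, standard error 0.37). Without WT normoxia replicate 2, 3 iron genes rose, and with only the 4 WT libraries in the fit 8 did.

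Genes of the integrated stress response, in which ATF4 drives amino acid and stress genes while translation is held back, rose in WT cells. Of 26 tested members 22 rose (84.6%) and 0 fell, with a median of 1.56, and 18 rose at least 2-fold. Atf3 went from 1.99 and 3.32 to 86.2 and 72.4 CPM, which is 4.89 on the log2 scale (standard error 0.32, adjusted p = 2.3e-06). Ddit3, which encodes the stress factor CHOP, went from 3.02 and 4.15 to 84.5 and 61.3 CPM (4.34, standard error 0.33), and Aldh1l2, a mitochondrial folate enzyme, from 19.6 and 24.8 to 427 and 445 CPM (4.30, standard error 0.28). Fgf21, a hormone released by stressed cells, had 0 and 2 reads in normoxia and 2.19 and 2.53 CPM in hypoxia, at least 12.7-fold higher. With each WT library left out in turn, 18 to 21 members rose.

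The composite element that ATF4 binds together with C/EBP proteins, TGATGNAA on either strand, was in 2.25% of the 11624 promoters and in 7 of the 26 of this list (26.9%, confidence interval 13.7% to 46.1%). The list is made of genes known for this response and was picked with earlier results of these data known. Its share is therefore no independent evidence that ATF4 acted in these cells. The element was in 4.06% of the windows of genes that rose at least 2-fold and in 1.14% of those of genes that fell at least 2-fold. It is shown here in capitals, as its opposite-strand form, upstream of Atf3 (chr1:190915608-190915667, minus strand) and of Fgf21 (chr7:45265021-45265080, minus strand).
Atf3: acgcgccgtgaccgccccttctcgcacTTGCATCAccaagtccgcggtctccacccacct
Fgf21: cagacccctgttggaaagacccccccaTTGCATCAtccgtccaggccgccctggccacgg

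The unfolded protein response of the endoplasmic reticulum had 13 of 23 tested genes that rose, 1 that fell and a median of 0.34. Hspa5, its main chaperone BiP, rose from 954 and 1129 to 3046 and 2574 CPM (1.43, standard error 0.20, adjusted p = 0.0003). The degradation genes Dnajb9, Herpud1 and Sel1l rose by 1.83 (standard error 0.20), 1.70 (standard error 0.20) and 1.02 (standard error 0.12). Of 28 tested antioxidant genes under NRF2, 3 rose and 10 fell (10.7% and 35.7%, against 16.9% and 15.5% of all tested genes). Their median was -0.32. Gpx1, glutathione peroxidase, fell from 131 and 113 to 66.9 and 59.4 CPM (-0.94, standard error 0.13) and Txn1, thioredoxin, from 570 and 561 to 321 and 319 CPM (-0.82, standard error 0.11). Hmox1, described above, is a member of this list and was one that rose. Without WT hypoxia replicate 2, 6 members fell, whereas 17 did without FIH-KO hypoxia replicate 1 or with only the 4 WT libraries in the fit and 16 without FIH-KO hypoxia replicate 2.

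**Figure D4:**
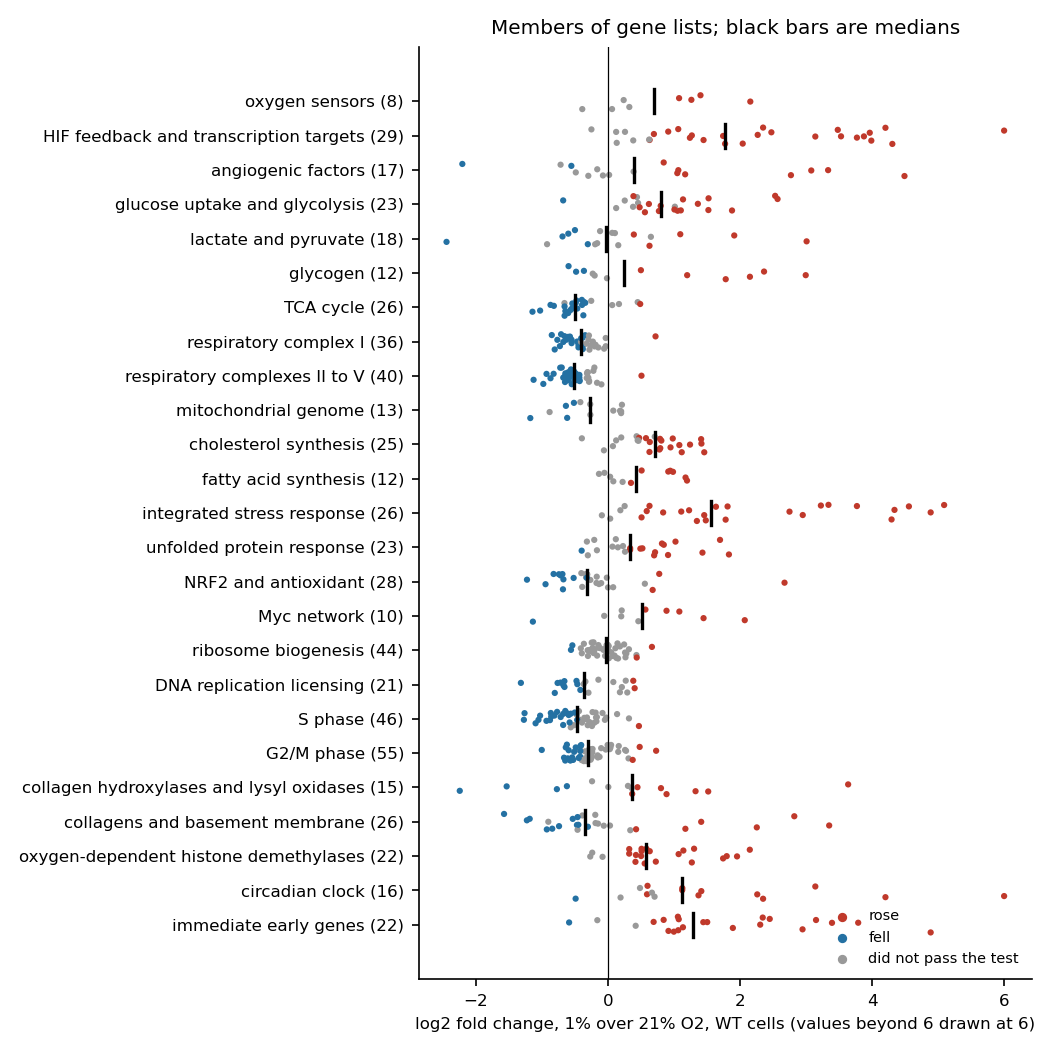
Log2 fold change, 1% over 21% O2, in WT cells of every tested member of 25 gene lists (number of members in brackets); red points rose, blue points fell, grey points did not pass the test and black bars are list medians, with 2 points above 6 drawn at 6. The bars of the HIF targets (1.77) and of the integrated stress response (1.56) stand furthest to the right and those of the TCA cycle (-0.50) and respiratory complexes II to V (-0.51) furthest to the left.

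Genes of DNA replication and mitosis fell by small amounts. Of 46 tested S phase genes 21 fell and 1 rose (median -0.47), of 21 licensing genes 10 fell and 2 rose (median -0.37), and of 55 G2/M genes 20 fell and 3 rose (median -0.30). The shares that fell were 45.7%, 47.6% and 36.4%, against 15.5% of all tested genes. Tk1, thymidine kinase, fell from 204 and 192 to 83.3 and 80.7 CPM (-1.27, standard error 0.21, adjusted p = 0.00085). E2f8, a repressor of the E2F family, fell (-1.26, standard error 0.21), as did the histone chaperone subunit Chaf1b (-1.05, standard error 0.15) and the replication factor Gins2 (-1.32, standard error 0.18). Mcm6, a subunit of the replicative helicase, fell from 504 and 531 to 316 and 294 CPM (-0.76, standard error 0.17), and the tubulin gene Tubb4b from 577 and 596 to 310 and 275 CPM (-1.0, standard error 0.18). Mki67, a general proliferation marker, had 732 and 725 against 588 and 645 CPM, a change of -0.24 (standard error 0.22, adjusted p = 0.43).

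The G2/M count rested on the choice of libraries. It was 4 without WT normoxia replicate 1 or WT normoxia replicate 2, 5 without WT hypoxia replicate 2 and 6 without WT hypoxia replicate 1, and it was 35 with only the 4 WT libraries in the fit and 36 without FIH-KO hypoxia replicate 1. The S phase count was 13 without WT hypoxia replicate 2 or WT normoxia replicate 2, and the licensing count was 3 to 5 with any WT library left out. Of 16 tested genes of G1 cyclins and inhibitors of cyclin-dependent kinases 4 rose, 1 fell and 11 were not called, with a median of 0.04. With only the 4 WT libraries in the fit, 6 of this list rose and 6 fell. Cdkn1a, which encodes the cell cycle brake p21, rose from 134 and 112 to 340 and 275 CPM (1.32, standard error 0.18). Ccnd2, a G1 cyclin and not a brake, rose by 1.11 (standard error 0.16). The p53 target list had 10 higher and 3 lower of 28, with a median of 0.37, and 5 higher without WT hypoxia replicate 1.

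The transcription factor gene Myc rose. Myc (ENSMUSG00000022346.18, chromosome 15, 61857227 to 61862223, plus strand) was at 252 and 204 CPM in normoxia and at 1169 and 750 CPM in hypoxia, which is 2.07 on the log2 scale (standard error 0.30, adjusted p = 0.00038). Its antagonists Mxi1 and Mga also rose, by 1.45 (standard error 0.15) and 1.08 (standard error 0.11). Of 10 tested members of the Myc network 5 rose and 1 fell, and 3 rose without WT hypoxia replicate 1. Ribosome biogenesis, a set of Myc targets, had a median of -0.03. Of its 44 tested genes 2 were higher and 2 lower (4.55% each, against 16.9% and 15.5% of all tested genes). These counts were 7 and 7 with only the 4 WT libraries in the fit. With each FIH-KO library left out in turn 2 to 4 rose and 3 to 5 fell, with each WT library left out in turn 0 to 1 rose and 0 to 1 fell, and with no filter beyond 1 read 3 rose and 6 fell. Npm1, nucleophosmin, had 2783 and 2506 against 2565 and 2487 CPM (-0.07, standard error 0.13, adjusted p = 0.73).

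Enzymes that modify collagen moved in both directions. P4ha2, a collagen prolyl hydroxylase subunit, rose from 19.8 and 16.5 to 259 and 193 CPM (3.64, standard error 0.21, adjusted p = 2.0e-06) and Plod2, a lysyl hydroxylase, from 146 and 125 to 388 and 388 CPM (1.52, standard error 0.12). P4ha3, of the same family as P4ha2, fell from 6.81 and 6.58 to 1.63 and 1.16 CPM (-2.24, standard error 0.36) and the lysyl oxidase relative Loxl3 fell too (-1.53, standard error 0.20). The enzyme list had 7 higher and 4 lower of 15 (46.7% and 26.7%, against 16.9% and 15.5% of all tested genes).

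Of 26 tested collagen and basement membrane genes 6 rose and 11 fell (23.1% and 42.3%, against 16.9% and 15.5% of all tested genes). Their median was -0.34. Col3a1, a fibrillar collagen, fell from 1325 and 1722 to 588 and 714 CPM (-1.23, standard error 0.18) and Col8a1 fell too (-1.57, standard error 0.27), while the matrix glycoprotein Tnc rose by 2.82 (standard error 0.35) and fibronectin, Fn1, from 954 and 1100 to 2328 and 2305 CPM (1.17, standard error 0.16). With each WT library left out in turn, 4 to 7 members of the list fell and 3 to 5 rose, and with at least 10 counts required in every library 2 rose. Snai2, a repressor of epithelial genes, rose from 40.7 and 42.6 to 120 and 105 CPM (1.43, standard error 0.12), whereas Vim, vimentin, overlapped between the groups (-0.11, standard error 0.14, adjusted p = 0.58). The list of epithelial-mesenchymal transition factors and adhesion genes was mixed. Of its 19 tested members 4 rose and 4 fell (21.1% each, against 16.9% and 15.5% of all tested genes). Its median was 0.115 and its lowest value -3.29. Krt19, an epithelial keratin, rose by 3.20. Krt18 fell (-0.59, standard error 0.18, adjusted p = 0.023), a call lost without WT hypoxia replicate 1 (adjusted p = 0.052), WT hypoxia replicate 2 (adjusted p = 0.15) or WT normoxia replicate 2 (adjusted p = 0.13).

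Chromatin enzymes that use oxygen rose. Of 22 tested JmjC histone demethylases and TET enzymes 19 rose and 0 fell, with a median of 0.57. Kdm6b, a demethylase of H3K27, went from 45.8 and 52.5 to 191 and 191 CPM (1.96, standard error 0.16, adjusted p = 8.9e-06), Kdm7a from 16.6 and 17.3 to 57.5 and 93.3 CPM (2.15, standard error 0.25) and Tet2, a DNA demethylation enzyme, from 18.4 and 20 to 62.2 and 71.6 CPM (1.80, standard error 0.15). With each WT library left out in turn 9 to 13 rose, the fewest without WT normoxia replicate 1.

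Clock and immediate early genes rose as well. Of 16 tested clock genes 11 rose and 1 fell (median 1.13). Beside Rora, described above, they included the repressors Bhlhe40 (19.9 and 14.2 to 176 and 124 CPM, a log2 fold change of 3.14 with a standard error of 0.21), Bhlhe41 (2.35, standard error 0.27) and Ciart (1.67 and 1.84 to 38.3 and 26.6 CPM, 4.20 with a standard error of 0.25). Of 22 tested immediate early genes, which growth factors and stress switch on within minutes, 19 rose and 1 fell (median 1.29). Klf2 went from 1.35 and 1.72 to 10.8 and 16.8 CPM (3.15, standard error 0.34). Of secreted signals, 6 of 14 tested chemokines and cytokines rose and 0 fell, among them Il11 (6.94 and 4.38 to 34.0 and 28.8 CPM, 2.47 with a standard error of 0.25), and of 12 Notch genes 4 rose, among them the ligand Jag2 (2.52, standard error 0.47). The shares of these lists that rose were 42.9% and 33.3%, against 16.9% of all tested genes. With at least 10 counts required in every library, 3 chemokines and cytokines rose. Of 25 tested interferon response genes 5 rose (20%, against 16.9% of all tested genes) and 6 fell (24.0% against 15.5%), and Isg20 rose by 3.31 (standard error 0.32). With any WT library left out 2 rose and 1 to 5 fell, and with at least 10 counts required in every library 3 rose.

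Of 21 tested genes of the Hippo pathway 3 rose and 3 fell (14.3% each, against 16.9% and 15.5% of all tested genes), with a median of -0.01, and 5 fell with only the 4 WT libraries in the fit. Among those that rose, Mst1 is in the mouse a secreted growth factor and not the Hippo kinase of that name. Amot, angiomotin, fell from 10.7 and 10.6 to 5.10 and 3.96 CPM (-1.22, standard error 0.28, adjusted p = 0.0063; adjusted p = 0.059 without WT hypoxia replicate 2), and Yap1 had -0.14 (standard error 0.10, adjusted p = 0.32). Of 23 tested YAP/TAZ targets 5 rose and 4 fell (21.7% and 17.4%, against 16.9% and 15.5% of all tested genes), and the growth factor gene Areg rose from 22.9 and 19.5 to 63.6 and 83.8 CPM (1.80, standard error 0.30). With each WT library left out in turn 1 to 4 of these targets rose, and 8 fell without FIH-KO hypoxia replicate 1 or with only the 4 WT libraries in the fit. Of 23 TGF-beta and BMP genes 5 rose and 7 fell (21.7% and 30.4%, against the same shares of all tested genes). Without WT hypoxia replicate 1 or WT normoxia replicate 1, 1 rose, and without WT normoxia replicate 2, 3 rose and 4 fell.

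The 15 largest rises by the naming rule included genes outside the lists. Atp7b, a copper exporter, had 3 and 2 reads in normoxia and 29.1 and 16.5 CPM in hypoxia, at least 123.3-fold higher, and Gpr35, a G protein-coupled receptor, went from 3 and 0 reads to 12.6 and 7.24 CPM, at least 53.6-fold higher. Espn, an actin-bundling protein, rose by 5.02 (standard error 0.58), the secreted Angptl6 by 4.63 (standard error 0.45), Mettl7b by 4.38 (standard error 0.42) and the transcript Gm16754 by 4.31 (standard error 0.34). Falls were smaller. Kyat3, which makes kynurenic acid, fell from 9.0 and 9.60 to 1.06 and 1.84 CPM (-2.69, standard error 0.39), as did the desmosome protein gene Ppl (-2.67, standard error 0.47) and Syt13 (-2.62, standard error 0.36). Lgals9, a galectin, fell from 15.6 and 14.3 to 2.91 and 2.66 CPM (-2.41, standard error 0.21), as did Amigo2, an adhesion protein (-2.25, standard error 0.23), Sema3f, a repulsive guidance cue (-2.22, standard error 0.22), and Scara3 (-2.18, standard error 0.21). Cavin2, a coat protein of caveolae, fell from 278 and 276 to 73.0 and 75.6 CPM (-1.90, standard error 0.19).

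The 10 called genes that lost the most CPM included cytosolic chaperones and cytoskeletal genes. Hsp90ab1 went from 7190 and 7221 to 5003 and 4675 CPM (-0.57, standard error 0.14, adjusted p = 0.008; adjusted p = 0.06 without WT hypoxia replicate 2) and Hspa8 from 3095 and 3461 to 1940 and 1778 CPM (-0.82, standard error 0.15). Actb, beta-actin, a gene often taken as a constant reference, fell from 2529 and 2362 to 1458 and 1315 CPM (-0.82, standard error 0.14, adjusted p = 0.0011), Tpm1, tropomyosin, from 1098 and 1012 to 493 and 540 CPM (-1.03, standard error 0.12) and S100a6 from 1128 and 1241 to 568 and 521 CPM (-1.12, standard error 0.16).

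The hypoxia response was set beside that of FIH-KO cells, measured in the other 4 libraries. In those, Hif1an was at 34.8 and 37.7 CPM in normoxia and at 45.5 and 51.0 CPM in hypoxia, below every WT library. A transcript can remain after a small CRISPR lesion, so its level alone does not show the state of the protein. The paper reports that the absence of FIH protein was established by Western blot and that chosen clones were Sanger sequenced. At the same threshold 2345 genes (16.8%) changed with hypoxia in FIH-KO cells. The 2 libraries of a group differed more in FIH-KO than in WT cells. The chi-square of their counts per degree of freedom was 16.4 in FIH-KO normoxia and 25.8 in FIH-KO hypoxia, against 6.17 and 11.6 in WT cells. The numbers of changed genes in the 2 genotypes are therefore not on equal terms. For a difference between the 2 responses edgeR called 0 genes (0%), with 925 at an unadjusted p under 0.05 and a smallest adjusted p of 0.145. DESeq2 called 40 such genes, and edgeR called 39 without FIH-KO hypoxia replicate 1 and 1 without WT normoxia replicate 1. Of the 2349 genes that rose in WT cells, 2269 (96.6%) were higher in hypoxia in FIH-KO cells too and 1103 (47.0%) passed the test there, and of the 2160 that fell, 2113 (97.8%) were lower and 882 (40.8%) passed. The median log2 fold change of the genes that rose at least 2-fold was 1.65 in WT and 1.05 in FIH-KO cells. These genes were chosen by their WT values, which makes those values larger on average, so the 2 medians are not a test.

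Gene by gene, Egln1 (2.16 and 2.33), Adm (3.33 and 3.36), Bnip3l (1.79 and 1.79) and Hilpda (2.04 and 2.03) had near-equal log2 fold changes in WT and FIH-KO cells. Vegfa had 3.08 in WT and 1.97 in FIH-KO cells (adjusted p = 0.19 for the difference), and its normoxic level was higher in FIH-KO cells, at 74.6 and 70.9 CPM. Slc16a3 had 3.01 and 5.58 (adjusted p = 0.19), from FIH-KO normoxia levels of 2.26 and 1.40 CPM. Ldha had 0.63 and 1.51 (adjusted p = 0.27), and the glycolysis list as a whole had medians of 0.80 and 1.32, with 8 of its 23 genes at an unadjusted p under 0.05, each with the larger value in FIH-KO cells. The integrated stress response had medians of 1.56 and 1.19 and the clock list 1.13 and 0.48, with 7 of 26 and 7 of 16 genes at an unadjusted p under 0.05, each with the larger value in WT cells. Among the 2349 genes that rose in WT cells, 2007 (85.4%) had the smaller change in FIH-KO cells. A smaller value there was therefore not particular to the stress and clock lists. Of all 13933 tested genes, 925 were at an unadjusted p under 0.05, and 352 of these had the larger value in FIH-KO cells. These lists are a part of those compared, and the S phase list had 0 of 46 such genes. None of these differences passed the adjusted test.

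**Figure D5:**
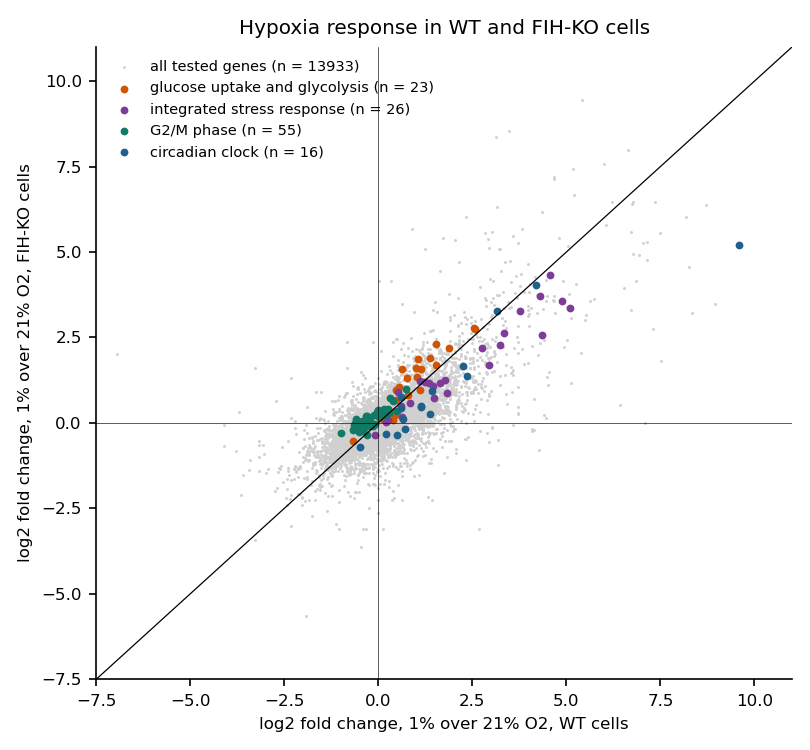
Log2 fold change, 1% over 21% O2, in WT cells (horizontal axis) and in FIH-KO cells (vertical axis) for the 13933 tested genes (grey), with 4 lists in colour and a line of equal change. Glycolysis genes (medians 0.80 in WT and 1.32 in FIH-KO cells) lie mostly above the line and genes of the integrated stress response (1.56 and 1.19) mostly below it. Among all genes that rose in WT cells, 85.4% had the smaller change in FIH-KO cells.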

How the data were processed

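The 8 RNA-Seq libraries of mouse LLC cells, 2 in each of 4 groups named in the labels, held 14519731 to 18177016 reads assigned to genes. The authors demultiplexed with bcl2fastq, mapped the paired-end, stranded mRNA reads using STAR (to GRCm39 by the study's methods, while the submitters' processing notes name both GRCm38 and GRCm39), and HTSeq gave the raw counts per gene that were deposited and are used here unchanged. The annotation release, strand setting and treatment of multiply mapped reads are not given in the sources used here, so overlapping and antisense genes and close paralogs are uncertain.

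Tests used edgeR 4.0.16 in R 4.3.3. Genes passed filterByExpr, libraries were scaled by TMM, all 8 entered a single quasi-likelihood fit of the 4 group means, and p values were adjusted by Benjamini-Hochberg over the tested genes, with 0.05 as threshold. CPM divide counts by the scaled library size and not by gene length. A fold against a group with 3 counts or fewer in each library is a lower bound set against that floor, which covers counting error only. Every tested HIF subunit and oxygen sensor could be named. So could up to 4 called and 2 uncalled members of each list, the 15 largest rises and falls averaging 50 counts or more in the WT libraries without overlap of groups, and the 10 largest gains and losses of CPM; a part of these is given, and some are not reported here. The members and lists were chosen with earlier results of these data known. The scripts were tested on simulated data.

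Promoters and positions came from GENCODE for GRCm39, which held 52610 of 53700 identifiers (97.97%). Motifs and plots used Python 3.11.15, pandas 2.3.3 and matplotlib 3.10.9. Alternatives were DESeq2 1.42.0, RLE or upper-quartile scaling, a looser and a stricter filter, the WT libraries alone, the replicate number as a block, and leaving out each library.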

Additional observations from a re-analysis of the deposited data

How the results depend on the processing

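With each library left out in turn, the genes changed by hypoxia in WT cells numbered 2124 to 5270 against 4509, and those changed at least 2-fold 941 to 1533 against 1424. The cause was not tested. The other settings gave 4126 (DESeq2) to 5660 genes (only the WT libraries), and upper-quartile scaling gave 2221 higher and 2333 lower against 2349 and 2160. Genes with another response in FIH-KO than in WT cells numbered 0; DESeq2 gave 40, no filter beyond 1 read 143, the replicate block 5 and leaving out 1 library 0 to 39, and the cause was not tested. This difference cannot be fitted with only the WT libraries.

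Of 134 genes, 118 were checked under 15 alternatives and 16 under 14, since they did not pass the filter of at least 10 counts in every library. In 122 the direction and the side of the threshold stayed the same in each alternative run. Arnt, with 0.00, had -0.0038 with DESeq2, -0.0037 with RLE size factors, -0.0182 with upper-quartile scaling, -0.0109 with no filter, and between -0.1357 (without WT normoxia replicate 1) and 0.0678 (without WT normoxia replicate 2) with a library left out. Hif1an, with 0.06, had between -0.0263 (without WT hypoxia replicate 1) and 0.1084 (without WT hypoxia replicate 2) with a library left out. These changes lie within 1 standard error.

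The replicate numbers of the labels are not stated to mark a shared culture or day. Deviations from the group means correlated by 0.0785 between same-numbered WT normoxia and hypoxia libraries, and by -0.0104 to 0.193 in the other pairs of groups, so the numbers were not taken to pair the libraries. With the replicate number as a block, 4593 genes changed in WT cells.

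With 2 libraries a group, genes near the threshold depend on single libraries, and genes with few reads in normoxia have folds limited by depth.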

Other observations

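Several gene families outside the lists were counted after their values were seen, so they are given without a test, beside 16.9% of all tested genes that rose and 15.5% that fell. Of 37 proteasome subunits, which make up the main protein-degrading complex of the cytosol, 27 fell and 0 rose, with a median log2 fold change of -0.48 and a summed level of 6803 and 6486 CPM in normoxia against 4859 and 4886 CPM in hypoxia. Of 8 subunits of the CCT chaperonin, which folds actin and tubulin, 6 fell. Of 77 mitochondrial ribosomal protein genes 32 fell and 1 rose (median -0.34), and of 79 cytosolic ones 7 fell and 1 rose (median -0.17). The cytosolic share that fell, 8.86%, lay below that of all tested genes. Of 32 Sm and hnRNP protein genes, which bind and splice RNA, 16 fell and 0 rose.

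Other families moved up. Of 18 cytosolic aminoacyl-tRNA synthetases, which charge tRNAs with amino acids, 12 rose and 2 fell (median 0.68). Of 304 zinc finger genes named Zfp 86 rose and 6 fell (median 0.33), and of 16 host genes of small nucleolar RNAs 10 rose and 0 fell (median 0.94). By biotype, 133 of 721 tested lncRNA genes rose (18.4%) and 23 fell (3.19%), whereas protein-coding genes were divided evenly, with 2115 of 11632 that rose and 2095 that fell. Among the 3484 tested genes with the lowest levels 433 rose and 141 fell, and among the 3483 with the highest 695 rose and 782 fell. The nuclear transcript Malat1 was at 390 and 269 CPM in normoxia and at 910 and 2006 CPM in hypoxia, so its 2 hypoxia libraries differed by more than its normoxia libraries.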
